A study of Homo sapiens with 66 samples.

Results

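HIF-1β binding in HKC-8 cells held in 0.5% oxygen for 16 h was mapped by chromatin immunoprecipitation and sequencing (ChIP-seq) in 2 separate experiments of the same series, one on the severity and duration of hypoxia and one on HIF-α knockout, with 2 libraries in each. These are 4 of the 50 libraries with a peak list among 66 samples. HKC-8 is a human renal proximal tubule epithelial cell line, and in both experiments these cells carried no edit: in the knockout experiment they are the parental cells, labelled WT. The same rabbit polyclonal HIF-1β antibody is given for all of the series. The comparison asks how far one nominal condition gave the same sites in both experiments. Libraries are called SD1 and SD2 (severity and duration) and WT1 and WT2 below, and other libraries of the series enter where they bear on these sites: HIF-1α and HIF-2α under the same condition, HIF-1β at other oxygen levels and times, HIF-1β in the HIF-1α and HIF-2α knockout lines (each a single CRISPR-Cas9 clone), and HIF-1β in RCC4 (a VHL-defective kidney cancer line, in normoxia) and HepG2 (a liver cancer line, 0.5% oxygen for 16 h). The labels give both WT libraries as split over lanes and neither SD library, and list 1 input library for the SD pair against 2 for the WT pair, so these differences cannot be told apart from the experiment.

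HIF-1β, encoded by ARNT, is the constitutive partner of the oxygen-regulated HIF-1α and HIF-2α subunits. In hypoxia the α subunits escape prolyl hydroxylation and VHL-dependent destruction, and the α/β heterodimers bind hypoxia response elements (HREs) with the core ACGTG or GCGTG. In renal tubule cells the pathway induces glucose uptake and glycolysis, turns down mitochondrial respiration, and remodels matrix, pH control and vascular signalling. AP-1, the Fos and Jun family of dimers, binds TGACTCA or TGAGTCA, often at enhancers far from promoters. HIF-1β can also pair with other proteins of its class, so its peaks are not by definition HIF sites.

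The sequences printed here are centres from among the highest-ranking sites of each kind, to show the range of base composition that the results turn on. Each runs 5′ to 3′ on the plus strand of GRCh37 (hg19), with HRE cores on either strand in capitals (a core on the minus strand reads CACGT or CACGC). The first 2 were called in all 4 libraries. One is chr19:34850167-34850367, 118 bp from the start of GPI, which encodes glucose-6-phosphate isomerase. The other is chr5:90576497-90576697, in an exon of the long non-coding RNA LUCAT1 or of another gene annotated there. Its nearest protein-coding gene is ARRDC3. The next 2 were called in both SD libraries and in neither WT library: chr10:133795505-133795705, 134 bp from the start of BNIP3, a mitophagy receptor, and chr5:131563661-131563830, a shortened window in an intron of P4HA2, a catalytic subunit of collagen prolyl 4-hydroxylase. The last 2 were called in both WT libraries and in neither SD library: chr1:155098207-155098407, intergenic and 2045 bp from the start of EFNA1, which encodes the Eph receptor ligand ephrin-A1, and chr21:45669159-45669359, in an intron of DNMT3L with ICOSLG, a T-cell costimulatory ligand, as the nearest start.
GPI: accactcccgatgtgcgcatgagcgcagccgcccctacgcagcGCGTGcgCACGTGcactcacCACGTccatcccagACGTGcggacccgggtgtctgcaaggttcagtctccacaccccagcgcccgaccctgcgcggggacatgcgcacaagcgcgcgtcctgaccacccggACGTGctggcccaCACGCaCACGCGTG
ARRDC3: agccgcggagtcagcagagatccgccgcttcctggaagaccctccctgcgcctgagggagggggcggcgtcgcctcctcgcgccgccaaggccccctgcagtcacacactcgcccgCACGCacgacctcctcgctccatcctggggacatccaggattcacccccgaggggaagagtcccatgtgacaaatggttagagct
BNIP3: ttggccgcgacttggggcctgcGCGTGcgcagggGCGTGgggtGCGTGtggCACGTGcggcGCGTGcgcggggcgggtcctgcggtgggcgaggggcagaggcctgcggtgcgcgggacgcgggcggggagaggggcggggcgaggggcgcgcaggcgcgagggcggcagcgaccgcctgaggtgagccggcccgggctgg
P4HA2: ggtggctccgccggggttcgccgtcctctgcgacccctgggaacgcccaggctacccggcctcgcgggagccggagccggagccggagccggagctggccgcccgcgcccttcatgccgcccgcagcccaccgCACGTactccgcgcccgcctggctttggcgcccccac
EFNA1: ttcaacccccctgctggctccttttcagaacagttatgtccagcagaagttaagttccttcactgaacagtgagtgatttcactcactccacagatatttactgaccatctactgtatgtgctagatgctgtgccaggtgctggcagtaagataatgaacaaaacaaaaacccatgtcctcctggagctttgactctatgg
ICOSLG: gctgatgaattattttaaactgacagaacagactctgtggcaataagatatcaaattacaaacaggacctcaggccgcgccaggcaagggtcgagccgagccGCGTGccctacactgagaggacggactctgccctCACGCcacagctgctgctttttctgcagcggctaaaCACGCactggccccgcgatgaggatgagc
The BNIP3 window was 82.1% G or C and held 6 HRE cores and 33 CpG dinucleotides, and the P4HA2 window was 78.8% G or C. The GPI window held 9 cores at 70.1% GC. The EFNA1 window had 44.8% GC, no HRE core and no CpG.

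The WT lists were several-fold longer than the SD lists. SD1 and SD2 held 1357 and 1793 peaks and WT1 and WT2 held 6199 and 8279, a 4.59-fold difference of geometric means. The peak score, read here as −10 times the log10 of the peak caller's p-value and at least 50 in each list, had medians of 71.8 and 72.4 in the SD lists and 112 and 125 in the WT lists. Median peak width was 896.5 and 742.0 bp in SD1 and SD2, and 1072 and 1132 bp in WT1 and WT2. The files give no read number, so the depth of each library is unknown, and a site missing from a list is a site that was not called, not one shown to be unbound.

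Merging peaks that overlapped by at least 1 bp gave 10265 sites. All 4 libraries shared 580 sites (5.65% of all sites). Both SD libraries and neither WT library held 177 (1.72%, called SD-only below), and both WT libraries and neither SD library held 3987 (38.8%, WT-only). A further 4839 sites appeared in 1 library alone, 3016 of them in WT2. Of the 818 sites called in both SD libraries, 580 were in both WT lists (70.9%, 95% Clopper-Pearson interval 67.7 to 74.0), 61 in 1 WT list and 177 in neither. Moving the SD sites by 10 kb lowered the share that met both WT lists to 4.89%. In the other direction, 11.4% (10.6 to 12.3) of the 5082 sites called in both WT libraries were in both SD lists, and 515 more were in 1 of them. Most of the SD sites thus recurred in the knockout experiment, and most of the WT sites had no counterpart in the SD lists.

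**Figure D1:**
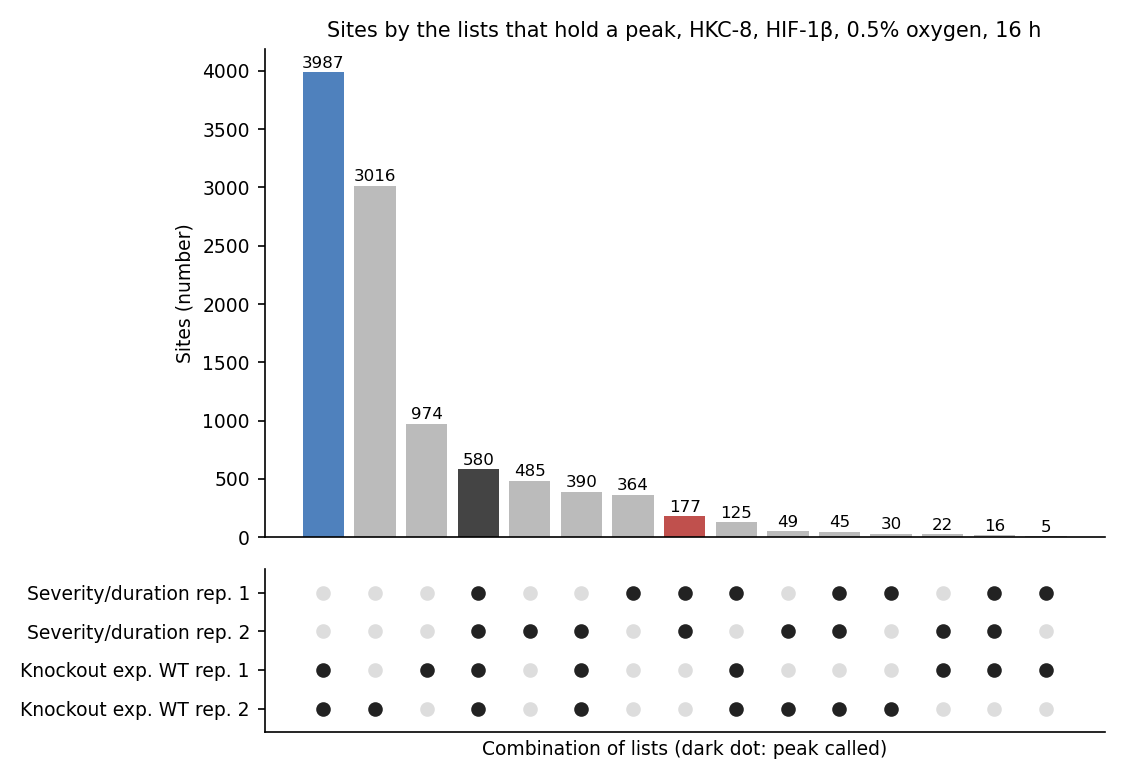
Number of merged sites (y axis) for each combination of the 4 HIF-1β lists that hold a peak; dark dots below each bar mark the lists. The 580 sites shared by all 4 lists are in black, the 177 SD-only sites in red and the 3987 WT-only sites in blue, and the second tallest bar is the 3016 sites called in WT2 alone.

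These shares depend on the length of the lists. When the best-scoring peaks of each list were kept, as many as the shortest list holds, 51.0% of the SD sites were in both WT lists and 36.8% of the WT sites in both SD lists, the SD-only sites rose to 321 and the WT-only sites fell to 485. Leaving out SD1 or SD2 gave 667 and 544 sites called in the other SD library and in neither WT library, and without WT1 the WT-only sites numbered 7043. For pairs of lists, 61.1% of the SD1 peaks overlapped an SD2 peak and 83.6% of the WT1 peaks overlapped a WT2 peak, against 54.2 to 60.4% of the shorter list for pairs across experiments. Over the shared sites, which come from the same 4 lists, the Spearman correlation of ranks was 0.70 between SD1 and SD2 and 0.91 between WT1 and WT2, and 0.35 to 0.43 across experiments.

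High-scoring peaks of either experiment were found again more often than low-scoring ones. In the top decile of SD1 and SD2 by score, 77.0 and 84.9% of peaks met both WT lists, in the next decile 77.9 and 79.9%, and in the bottom decile 22.8 and 22.9%. The fall was steeper in the WT lists: 51.2% of the top decile of WT1 and 42.9% of that of WT2 were in both SD lists, 18.3 and 13.2% of the next decile, and 1.94 and 0.847% of the bottom decile. Of the top decile, 70.8% of WT1 peaks and 61.5% of WT2 peaks met at least 1 SD list. Shared sites had a median rank of 29.3% and 21.3% of the list in SD1 and SD2 (0% is the top) and of 8.38% and 6.48% in WT1 and WT2. SD-only sites ranked at a median of 40.1 and 35.0%, and WT-only sites at 49.1 and 38.3%.

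All 3 kinds of site held HREs at their centres more often than windows moved by 2 kb did. They differed in AP-1 motifs and in distance to promoters. An HRE core lay within 100 bp of the centre in 71.7% (67.9 to 75.4) of the shared sites, 65% (57.5 to 72.0) of the SD-only sites and 50.4% (48.8 to 52.0) of the WT-only sites. Windows moved by 2 kb held one in 25.4, 27.1 and 20.7%. The order of the SD-only and WT-only HRE shares depended on the SD libraries used. The SD-only share was 43.8% without SD1 and 47.4% without SD2, under WT-only shares of 50.9 and 51.2%. In lists of equal length it was 69.5%, against 54.0% of the WT-only sites. The moved windows were not matched to the centres for GC content, and how far base composition sets the motif shares was not tested. An AP-1 motif was present in 16.9% (13.9 to 20.2) of the shared and 18.1% (16.9 to 19.3) of the WT-only sites, against 3.79 and 3.65% of moved windows. Only 3 of the 177 SD-only sites had one (1.69%, 0.351 to 4.87), with 5.08% in the moved windows. That share was 5.55% of the 667 such sites without SD1 and 6.85% of the 321 in lists of equal length, both still under the shares of the other classes. Sites are not replicates, so these intervals cover counting error alone and no test was made across sites. The AP-1 motif reads as itself on the other strand, and CACGTG, which holds an HRE core on each strand, occurred in 12.1, 11.9 and 7.02% of the shared, SD-only and WT-only windows.

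**Figure D2:**
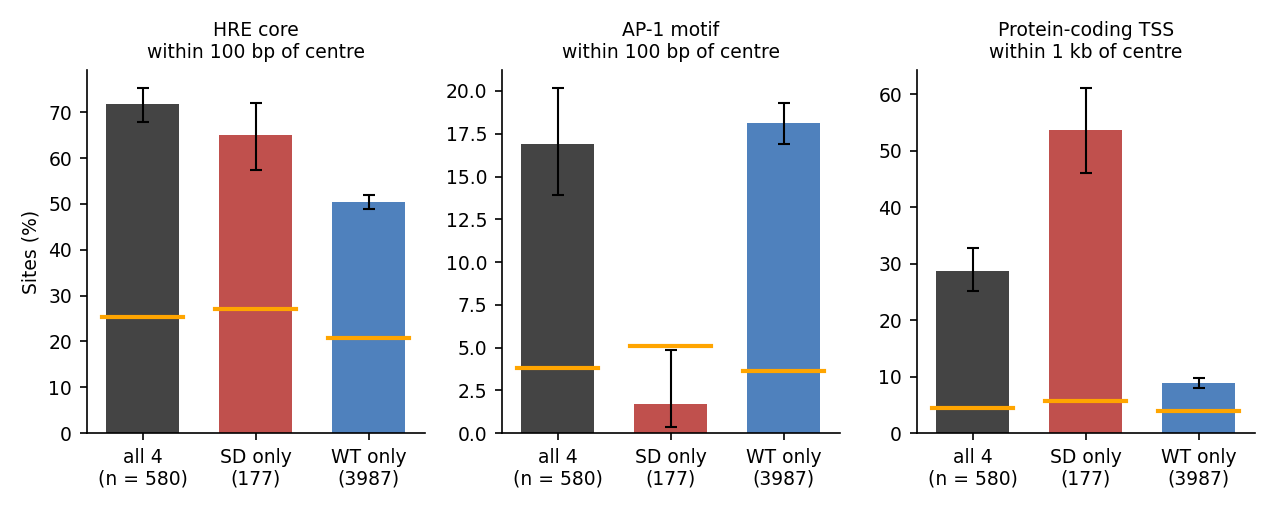
Percentage of sites (y axis) with an HRE core or an AP-1 motif within 100 bp of the centre, or with a protein-coding transcription start site (TSS) within 1 kb, for the sites called in all 4 lists, SD-only sites and WT-only sites; error bars are 95% Clopper-Pearson intervals and orange lines are the same share in moved windows (2 kb for motifs, 10 kb for the TSS). SD-only sites stand out by the lowest AP-1 share (1.69%) and the highest share near a TSS (53.7%).

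SD-only sites lay near promoters more often than the other sites. Within 1 kb of a protein-coding TSS lay 53.7% (46.0 to 61.2) of the SD-only sites, 28.8% (25.1 to 32.7) of the shared sites and 8.85% (7.99 to 9.78) of the WT-only sites, with 5.65, 4.48 and 4.01% after a move of 10 kb. The SD-only share was 28.2% without SD1 and 36.2% without SD2, where more sites enter the class, and 51.1% in lists of equal length. The median distance to a TSS was 0.711 kb, 11.2 kb and 28.2 kb in the same order. WT-only sites were mostly intronic (60.6%) or intergenic (31.4%). Away from promoters the AP-1 contrast remained: 3 of the 82 SD-only sites over 1 kb from a TSS held the motif (3.66%, 0.761 to 10.3), against 21.3% of 413 shared and 19.3% of 3634 WT-only sites.

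The shares of the core forms differed as well. ACGTG was more frequent than GCGTG in the shared sites (55 against 35.5%) and in the WT-only sites (33.6 against 24.2%). In the SD-only sites GCGTG was at 47.5% (39.9 to 55.1) and ACGTG at 41.2% (33.9 to 48.9), with overlapping intervals. In moved windows GCGTG was the commoner: 17.7 against 9.48% (shared), 19.8 against 10.5% (SD-only) and 13.3 against 8.82% (WT-only). A preference for GCGTG in the SD-only sites is thus not shown. More than 1 core in the window was found in 41.2% of the SD-only, 34.8% of the shared and 17.2% of the WT-only sites. GGGCGG, the GC box bound by Sp1-type factors, was in 45.8% of the SD-only windows, 22.1% of the shared and 7.93% of the WT-only windows (6.50, 6.90 and 4.36% of moved windows). GGAATG, the core read by TEAD factors, had the opposite order: 5.08% of the SD-only, 17.4% of the shared and 22.2% of the WT-only sites, with 10.5 to 11.3% in the moved windows. Here too the moved windows were not matched for GC content, so these shares cannot be told apart from base composition.

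The classes also differed in base composition. Median GC content over the 201 bp at the centre was 68.7% in the SD-only sites, 57.2% in the shared sites and 49.3% in the WT-only sites, and 57.1, 22.2 and 3.69% of the sites had 65% GC or more. Of the 818 SD sites, the share called in both WT lists was between 71.2 and 87.8% in each bin up to 65% GC. It was 70.4% (61.2 to 78.6) of 115 sites at 65 to 70% GC, 44% (33.6 to 54.8) of 91 sites at 70 to 75% and 13.6% (6.04 to 25) of 59 sites at 75% or more. The fall was seen both within 1 kb of a TSS, where 82.7% of 52 sites at 60 to 65% GC and 12.8% of 47 sites at 75% or more were in both WT lists, and farther away, where 91.5% of 71 and 16.7% of 12 were. Sites with an HRE core gave the same picture, with 92.7% of 82 at 60 to 65% and 13.7% of 51 at 75% or more.

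**Figure D3:**
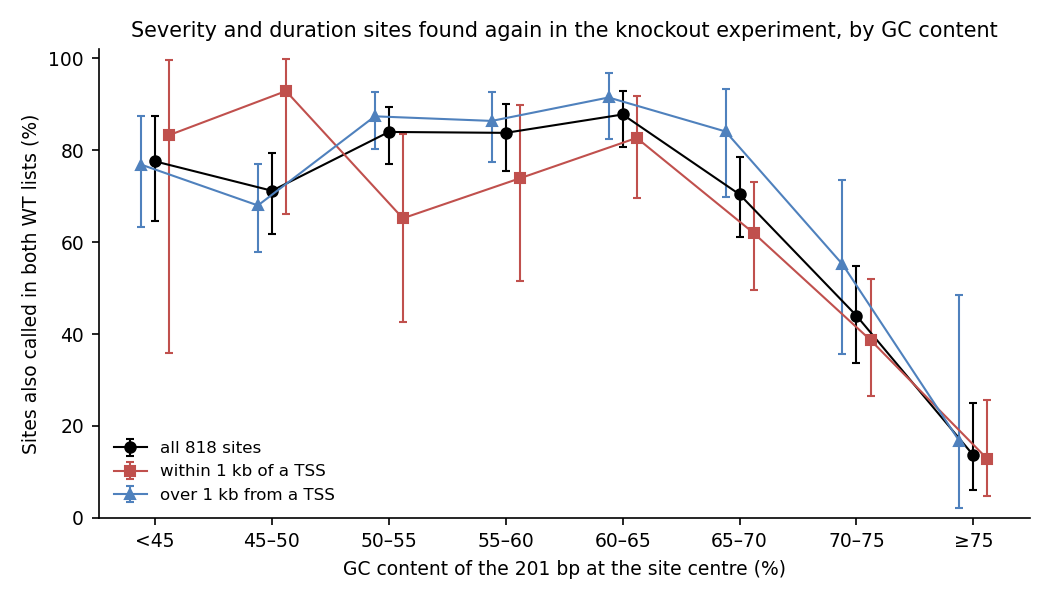
Percentage of the 818 SD sites that were also called in both WT lists (y axis) by the GC content of the 201 bp at the site centre (x axis), for all sites (black circles), those within 1 kb of a TSS (red squares) and those farther away (blue triangles); error bars are 95% Clopper-Pearson intervals. The share falls from 87.8% of all sites at 60 to 65% GC to 13.6% at 75% GC or more, near promoters and away from them.

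The fall was present among high-ranking and low-ranking SD sites alike. Of SD sites in the upper 50% of ranks, 84.3% (80.4 to 87.6) with GC under 65% and 53.7% (46.6 to 60.6) with GC of 65% or more were in both WT lists, and in the lower 50% of ranks 73.6% (65.5 to 80.7) and 31.7% (20.3 to 45) were. Sites of 75% GC or more had the best median rank of all bins (24.4% of the list). With sites of 65% GC or more left out, a subset chosen after the data were seen, 81.6% of the SD sites were in both WT lists, and 20.6% of the shared and 21.1% of the SD-only sites were promoter-proximal. The AP-1 share of the SD-only sites stayed low there, at 2.63% (0.320 to 9.18) of 76 sites against 19.7% of the shared sites. WT sites showed the reverse: 3.34% of the 1347 WT sites under 45% GC were in both SD lists, and 64.5% of the 62 at 70 to 75%.

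The same gradient ran through the ranks of the sites that all 4 lists shared. In the 129 shared sites of 65% GC or more the median rank was 21.4 and 19.7% in SD1 and SD2, and 16.5 and 11.4% in WT1 and WT2. In the 124 shared sites under 50% GC it was 34.5 and 19.2% in SD1 and SD2, but 4.37 and 4.60% in WT1 and WT2. Across the 580 sites, the shift in mean rank from SD to WT had a Spearman correlation of 0.34 with GC content. Replicates of 1 experiment also differed with GC, with correlations of 0.18 for SD2 minus SD1 and −0.28 for WT2 minus WT1.

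**Figure D4:**
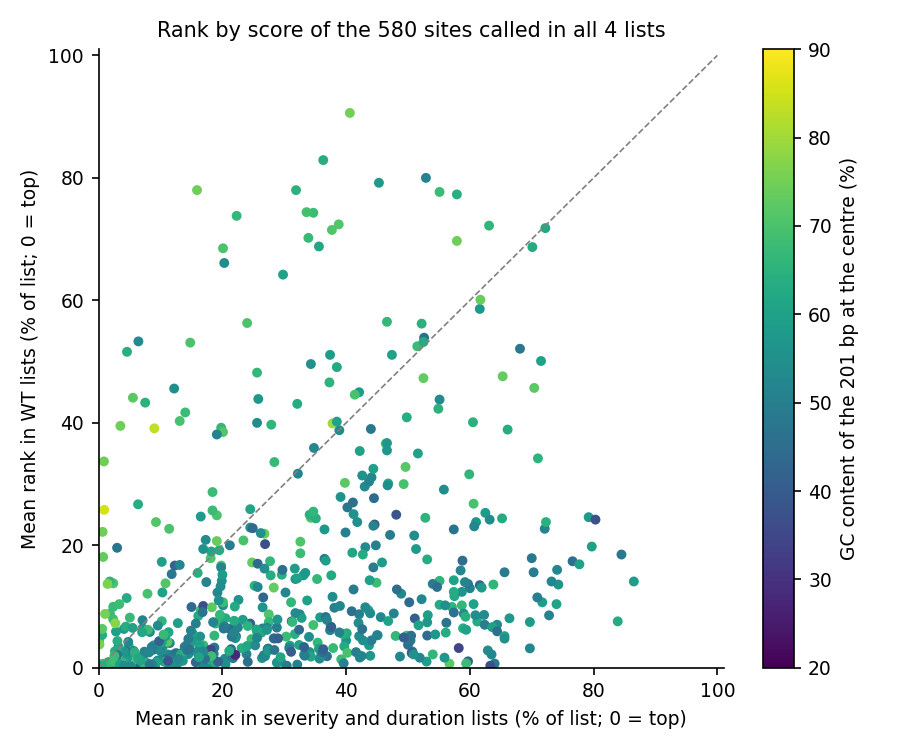
Mean rank by score in the 2 WT lists (y axis, percent of the list, 0 is the top) against mean rank in the 2 SD lists (x axis) for the 580 shared sites, coloured by GC content; the dashed line marks equal rank. Most sites lie below the line, nearer the top of the longer WT lists, and those far above it are mainly of high GC content.

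The scores and ranks of single sites differed between the experiments. The SD lists were headed by the promoter of ENO1, the glycolytic enolase, with scores of 2979 and 2734, which had 1013 and 1367 in WT1 and WT2 and ranked at 4.84 and 3.91% there. ANKRD37, a frequent HIF target, followed with 2626 and 2573 in the SD lists and 943.6 and 1862 in the WT lists. PKM, encoding pyruvate kinase, had 505.4 and 645.6 in SD1 and SD2, and 3100 in both WT lists. Many top WT peaks were tied at this score of 3100, so those peaks cannot be ordered among themselves. Scores depend on the depth of a library, which is unknown, so only ranks within a list can be compared. A higher score in 1 experiment, here or below, is therefore not a measure of stronger binding. Ranks are percentages of lists of unequal length, so that 1 position weighs less in the WT lists.

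Among shared sites, the 5 with the largest difference in percent rank in favour of WT lay 1.12 to 140 kb from a TSS. This difference is one of percent rank in lists of unequal length, and how far list length set it was not tested. A site at chr5:67729461-67730749, 140 kb from PIK3R1, a regulatory subunit of PI3-kinase, scored 50.25 and 59.72 in the SD lists and 589.1 and 1023 in the WT lists. The others named by the same rule were nearest to CSRNP1, BICD1 (a dynein adaptor), WASF2 (a WAVE-complex actin regulator) and STX3 (a syntaxin), with GC content of 47.8 to 62.7% over the 5 sites. Those with the largest difference in favour of SD were nearest to FRMD8, WSB1, SOX12, TET1 and TMEM63B, at 64.2 to 75.1% GC. The site in the TET1 gene, which encodes a 5-methylcytosine dioxygenase, scored 115.0 and 149.1 in the SD lists and 84.92 and 75.30 in the WT lists. At the WSB1 start, the scores were 141.9 and 110.6 in the SD lists and 60.77 and 92.90 in the WT lists.

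The 5 sites ranked highest over all 4 lists were nearest to NDRG1 (a stress-response gene), GPI, ARRDC3, GAPDH and DDIT4, which encodes the mTORC1 inhibitor REDD1. GPI scored 1410 and 1718 in SD1 and SD2 and 3100 and 2806 in WT1 and WT2, and GAPDH scored 1143, 1476, 2409 and 3100 in the same order. DDIT4, at a site 12.9 kb from its start, scored 1010, 847.6, 3100 and 3100. All 5 were within the top 1.47% of each list and were called in every one of the 6 other SD HIF-1β libraries and the 4 HIF-1β libraries of the knockout lines.

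Several SD-only sites were among the strongest of their lists. BNIP3, whose sequence is printed above, scored 2073 in SD1 and 666.5 in SD2, ranks of 0.221 and 1.68%, and was not called in WT1 or WT2. It was called in all 6 other SD HIF-1β libraries, in both RCC4 and both HepG2 libraries, and in 0 of the 4 knockout-line HIF-1β libraries. P4HA2 scored 522.1 and 499.7, with a call in 4 of 6 other SD libraries and 0 of 4 knockout-line libraries. The other sites named by rank were nearest to ZNF395 (1115 and 1010), CLK3, a splicing-factor kinase (453.2 and 547.8), and RASSF7 (1093 and 330.0). GC content in the 5 windows was 77.1 to 83.1%. Each was called in both HIF-1α libraries of the SD experiment at 16 h and in neither HIF-1α library of the WT cells.

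The strongest WT-only sites were broad and lay 2.04 to 38.9 kb from a TSS. EFNA1 (chr1:155095986-155100937) scored 3100 in both WT lists. It was called in all 4 knockout-line HIF-1β libraries, in both WT HIF-1α and both WT HIF-2α libraries, and in 0 of the 6 other SD HIF-1β libraries. ICOSLG scored 2387 and 3134, TTYH3 2851 and 3100, RNF212, a meiotic crossover factor, 2157 and 3206, and TGM2, a transglutaminase, 1915 and 3100. These 5 merged sites were 2211 to 5500 bp wide, so the 201 bp at the middle need not hold the point of binding, and the files give no summit. The sites at ICOSLG, TTYH3, RNF212 and TGM2 were each called in 1 to 3 of the 6 other SD HIF-1β libraries.

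In the HKC-8 HIF-1β libraries that had no part in defining the classes, SD-only and WT-only sites were each called more often in their own experiment. Shared sites were called in 73.6 to 92.8% per knockout-line HIF-1β library and in 30.0 to 63.1% per HIF-1β library of the other SD conditions. SD-only sites were called in 45.2 to 65% per library of the other SD conditions and in 2.26 to 16.4% per knockout-line library. For the SD-only sites of 65% GC or more, 57.1% of the class, the ranges overlapped, with 14.9 to 44.6% per library of the other SD conditions and 1.98 to 22.8% per knockout-line library. WT-only sites were called in 0.376 to 2.38% per library of the other SD conditions and in 21.3 to 61.3% per knockout-line library. For HIF-1α at 16 h, SD-only sites were called in 41.2 and 22.0% in the SD libraries, and in 1.13 and 0% in the WT libraries. For HIF-2α the libraries overlapped, with 9.60 and 3.95% in SD and 5.08 and 0% in WT. Of WT-only sites, 61.9 and 81.2% were called for HIF-2α in the WT cells and 23.1 and 15.8% for HIF-1α, while none of the 22 other SD libraries held more than 4.77% of them. These 22 lists held 237 to 1496 peaks and the knockout-line HIF-1β lists 2085 to 5786. The WT lists held 4537 and 6749 peaks for HIF-2α and 1913 and 1535 for HIF-1α. A list shorter than the class can hold only a part of the WT-only sites, so shares in lists of unlike length are not directly comparable.

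In other cell lines, the sites of the shorter lists recurred more often. SD-only sites were called in 40.1 and 29.9% of cases in RCC4 and in 62.1 and 43.5% in HepG2, and 76.3% were called in at least 1 of these 4 HIF-1β libraries. The shares for the shared sites were 50.2 and 46.7% in RCC4 and 53.3 and 46.0% in HepG2, with 72.2% in at least 1. WT-only sites were called in 2.56 and 2.38% in RCC4 and 14.1 and 9.43% in HepG2, with 17.2% in at least 1. After a move of 10 kb, 4.24, 4.31 and 1.82% of the SD-only, shared and WT-only sites met a peak in at least 1 of the 4 libraries. List lengths ranged from 911 peaks in RCC4 to 6171 in HepG2.

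**Figure D5:**
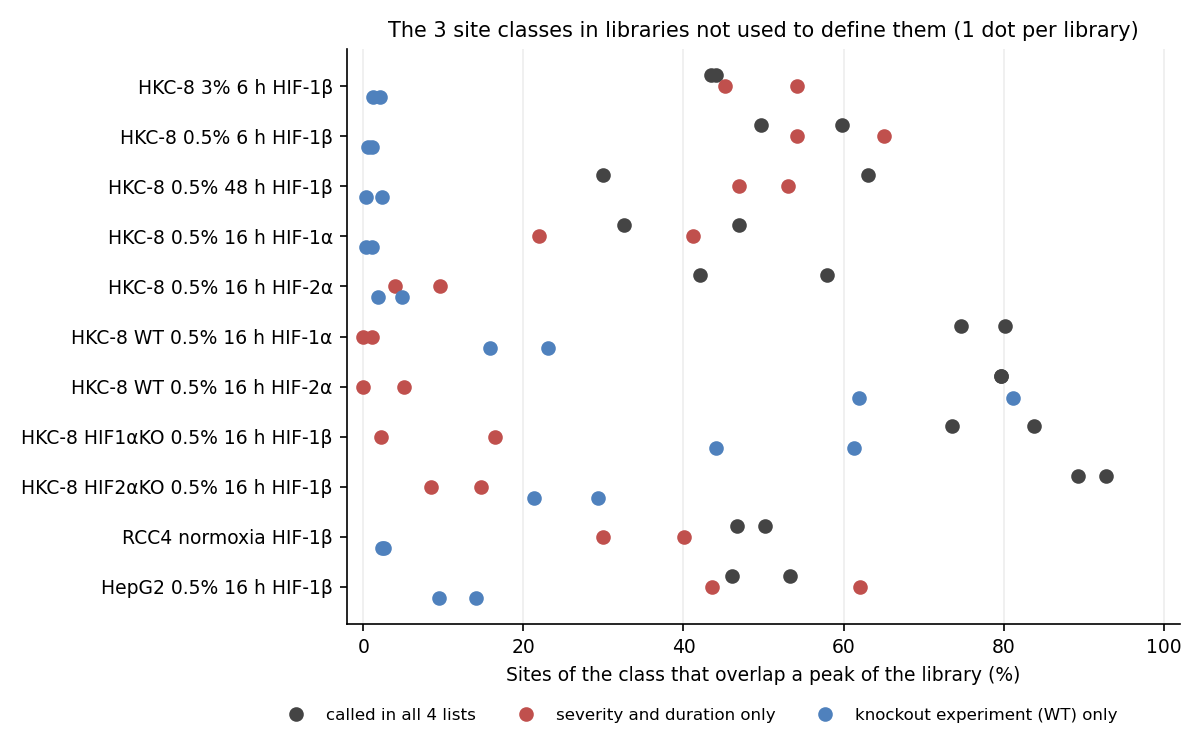
Percentage of shared (black), SD-only (red) and WT-only (blue) sites that overlap a peak (x axis) in selected HKC-8, RCC4 and HepG2 libraries not used to define the classes (y axis), 1 dot per library. Red dots lie at 22.0% or more in the HIF-1β rows and the 16 h HIF-1α row of the SD experiment and in RCC4 and HepG2, and at 16.4% or less in the rows shown for the knockout experiment, where the blue dots lie at 15.8% or more.

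Besides the GC-rich sites, the SD-only class held a second kind, found by inspecting their positions. The motif GTTCGANTC, searched on both strands within 250 bp of the centre, reads like the B box of the internal promoter of tRNA genes, which RNA polymerase III transcribes. It was in 32 of the 177 SD-only sites (18.1%, 12.7 to 24.6), 6 of the 580 shared sites (1.03%) and 4 of the 3987 WT-only sites (0.10%), with 0.565, 0.172 and 0.188% in moved windows. Only 4 of the 32 had 65% GC or more, 10 lay within 1 kb of a protein-coding TSS and 18 held an HRE core. Chromosome 6 between 26 and 29 Mb, a region of histone genes, held 8 of the 32 and 19 of the 177, against 2 of the 580 and 7 of the 3987. The leading one, chr6:27869983-27871108, 9360 bp from the histone gene H2BC17, scored 156.97 in SD1 and 241.53 in SD2. Another of these sites was centred 1 bp from the start of POLR3E, which encodes a subunit of RNA polymerase III itself, with 73.94 and 134.71. No tRNA gene annotation of this build was used here, so the match is one of letters only.

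These sites recurred in the other HIF-1β libraries of the severity and duration experiment. In RCC4 and HepG2, 18 of the 32 were called in at least 1 of the 4 HIF-1β libraries. In the 6 HIF-1β libraries of its other oxygen levels and times, 84.4 to 100% of the 32 were called per library, and 22 of the 32 were called in every one. Per knockout-line HIF-1β library 0 to 28.1% were called, and per HIF-1α or HIF-2α library of the severity and duration experiment 0 to 25%. Over whole lists, peaks with the motif made up 3.54 and 3.69% in SD1 and SD2, 2.86 and 0.920% in RCC4, and 0.616 and 0.529% in HepG2. They made up 5.46 to 12.1% (median 6.60%) in the 6 HIF-1β libraries of the other SD conditions and 0.237 to 1.39% (median 0.402%) in the 4 knockout-line libraries. The difference of means was −6.83 percentage points (exact permutation test, two-sided, p = 0.00476, the smallest that 6 against 4 can give). The test was added after the pattern had been seen and compares libraries of different oxygen levels, times and genotypes as well as of different experiments. It counts libraries as independent although each side is a single experiment, so its p-value does not measure the spread between experiments. The motif was also found in sites chosen as not called in the WT libraries of the knockout experiment. For the share of peaks at 65% GC or more, the same libraries overlapped (9.74 to 19% against 4.80 to 14.5%, −4.97 percentage points, exact permutation p = 0.105). Of the 177 SD-only sites, 48 had neither the motif nor high GC. Recurrence was not particular to the motif sites. Of the 48, 58.3 to 87.5% were called per HIF-1β library of the other SD conditions, and 23 in every one. Per knockout-line HIF-1β library 4.17 to 16.7% of the 48 were called.

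Genes of pathways with known HIF targets were nearest to sites of all 3 kinds. Of 143 genes in 12 lists, 48 (33.6%) were the nearest gene to a shared site, 12 (8.39%) to an SD-only site and 43 (30.1%) to a WT-only site. Over all 19794 protein-coding genes the shares were 2.72, 0.798 and 13.5%. A site of both SD lists was nearest to 42.7% of the listed genes (3.70% of all genes), and a site of both WT lists to 52.4% (16.3% of all genes). The lists include 11 housekeeping genes and 13 genes of the AP-1 family beside the hypoxia pathways, and were chosen with results of these data known, so the counts are descriptions, and the nearest gene need not be the regulated one.

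In glycolysis, 11 of the 19 genes had at least 1 shared site, 4 an SD-only and 5 a WT-only site. The shared sites lay 82 to 254 bp from the start at GPI, ENO1, PGK1, PFKFB4, HK2 and ALDOA, and HK2, which encodes hexokinase 2, scored 522.1, 602.3, 700.8 and 894.9 in SD1, SD2, WT1 and WT2. All 4 SD-only sites were at promoters: PFKL (284.1 and 208.7), SLC2A1 (426.0 and 129.9), PFKP (192.8 and 116.7) and TPI1 (107.4 and 60.79), which encode 2 phosphofructokinases, the GLUT1 glucose transporter and triosephosphate isomerase. SLC2A1 also had a shared site 1844 bp from its start, with 79.57 and 176.2 in the SD lists and 1175 and 1773 in the WT lists. The 5 WT-only sites near PFKP, ENO1, SLC2A3, HK2 and SLC2A1 were 8.40 to 24.8 kb from the start.

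In pyruvate and lactate metabolism (10 genes), the promoter of LDHA, lactate dehydrogenase A, was shared (605.8, 1009, 263.7 and 1095). The start of PDK3, a kinase that restrains pyruvate dehydrogenase, was SD-only (90.54 and 61.88), and 2 genes had a WT-only site. Of 9 glycogen genes, 2 had a shared site (GBE1, the branching enzyme, and PPP1R3C, a glycogen-targeting phosphatase subunit), 0 an SD-only and 5 a WT-only site. PPP1R3C scored 1411 and 1143 in the SD lists, and 255.4 and 548.6 in the WT lists, at 73.1% GC.

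The oxygen sensors were split between the classes. EGLN1, which encodes the main HIF prolyl hydroxylase PHD2, had an SD-only promoter site (617.4 and 392.6, 76.6% GC). EGLN3, which encodes PHD3, had a shared site 12.3 kb from its start (698.7, 788.0, 3100 and 3100) and an SD-only one 109 kb away (260.7 and 162.6, 78.6% GC). WT-only sites were nearest to 5 of the 10 genes of this list: EPAS1 (HIF-2α), HIF3A, EGLN3, ARNT2 and HIF1A.

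For mitophagy and mTOR stress (9 genes), 3 had a shared, 1 an SD-only and 0 a WT-only site. BNIP3L, a mitophagy receptor related to BNIP3, was shared at 85.6% GC, with 1466 and 785.8 in SD1 and SD2 and 182.8 and 373.5 in WT1 and WT2, ranks of 0.442, 1.34, 32.3 and 19.3%. Of these related genes, both near the top of the SD lists, one was thus not called and the other ranked lower in the WT lists.

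Collagen hydroxylases and matrix (13 genes) had 6 genes with a shared, 1 with an SD-only (P4HA2) and 6 with a WT-only site. P4HA1, the other main prolyl hydroxylase subunit, was shared (688.0, 497.8, 571.0 and 651.8). COL4A1, a basement membrane collagen, had a shared distal site with 127.7 and 158.1 in the SD lists and 2714 and 3230 in the WT lists. Histone lysine demethylases (13 genes) had 6, 0 and 1 genes in these classes, with KDM3A shared at 462.0, 819.3, 3100 and 3100. The pH list (6 genes) had 2, 0 and 1, with CA9, carbonic anhydrase IX, shared at 329.7, 280.1, 1612 and 2712.

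Secreted vascular factors (10 genes) had 1 gene with a shared site, ADM (adrenomedullin: 360.9, 343.4, 2016 and 2419), 0 with an SD-only and 4 with a WT-only site. The 4 were ANGPTL4, VEGFA, PDGFB and VEGFC, and the VEGFA site, 24.7 kb from the start of this endothelial growth factor gene, scored 116.6 and 109.0 in WT1 and WT2. The AP-1 family (13 genes) had 3, 0 and 4. A WT-only site 23.7 kb from FOS scored 1177 and 1963, and the site nearest to JUN was shared (273.3, 473.3, 1173 and 1219). Other common targets (20 genes) had 10, 2 and 8, with ERO1A, an oxidase of the endoplasmic reticulum, SD-only at its start (226.1 and 132.4, 80.1% GC). PLIN2, a lipid droplet protein, was SD-only at its start with scores near the caller's limit (50.91 and 54.46). Of 11 housekeeping genes, 2 had a shared, 1 an SD-only and 2 a WT-only site.

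Whole lists were compared last, with the library as the unit. HRE cores were in 63.2 and 61.5% of SD peaks and 53.9 and 45.6% of WT peaks, a difference of −12.6 percentage points (means 62.4% ± 1.20 and 49.7% ± 5.89, standard deviation, n = 2 each, exact permutation p = 0.333). AP-1 motifs were in 10.6 and 13.9% of SD and 17.9 and 16.6% of WT peaks, a difference of 5.01 points. Promoter-proximal peaks made up 34.4 and 26.9% in SD and 12.2 and 12.9% in WT, a difference of −18.1 points, and peaks of 65% GC or more 33.1 and 23.9% against 5.09 and 6.23%, or −22.9 points. The 2 experiments did not overlap in any of these, nor in peak number, but 2 against 2 libraries cannot give an exact permutation p below 0.333, which all 5 had. The labels do not say whether replicates came from separate cultures, so these p-values measure the spread between libraries only.

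With the HIF-1α and HIF-2α libraries of the same cells, oxygen and time added, permuted within antibody, 4 of the 5 measures passed the threshold of 0.05. This counts the 3 antibodies as separate, although libraries of 1 replicate number may come from the same chromatin. With the antibodies of a replicate kept together there are 2 against 2 preparations, and the exact permutation p was 0.333 for each of these 4, the smallest possible. WT libraries held 3.26-fold more peaks (log2 difference 1.71, exact permutation p = 0.00926, adjusted 0.0185) and fewer of them near promoters (−10.6 points, exact permutation p = 0.00926, adjusted 0.0185). The AP-1 share was 5.78 points higher in WT (exact permutation p = 0.0185, adjusted 0.0247), and the share at 65% GC or more, a measure added after the data were seen, was 17.9 points lower (WT minus SD −17.9, exact permutation p = 0.00926, adjusted 0.0154). The HRE share differed by −1.36 points (exact permutation p = 0.741). Among peaks of under 65% GC, the promoter difference was 0.292 points over the 3 antibodies (exact permutation p = 0.889, adjusted 0.889) and −4.70 points for HIF-1β alone, and the AP-1 difference was 4.75 points (exact permutation p = 0.0278, adjusted 0.0556). Cutting all lists to 1 length left an AP-1 difference of 3.19 points (exact permutation p = 0.148, adjusted 0.198; adjusted values over all alternatives ran from 0.0247 to 0.444), and a promoter difference of −11.9 points (exact permutation p = 0.0185, adjusted 0.0370). Among peaks of under 65% GC the promoter difference was thus smaller, and a part of it remained for HIF-1β alone. The AP-1 difference was smaller under the GC limit and with lists of 1 length, more so with the latter. What set either one was not tested.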

How the data were processed

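Peak lists of 42 ChIP-seq libraries were used, 4 of them HIF-1β in HKC-8 cells at 0.5% oxygen for 16 h. As the study's methods state, the authors trimmed reads with Trim Galore 0.3.3 and aligned them to GRCh37 with BWA 0.7.5a-r405. They dropped alignments with mapping quality under 15 (SAMtools 0.1.19), duplicates (Picard 1.106) and blacklisted regions (bedtools 2.17.0). Peaks were called with T-PIC and MACS in control mode (MACS version not given in the sources used here). The study then filtered the peaks of both callers against random background regions and required overlap between replicates. The deposited score of each peak was read from its values as −10 times the log10 of the p-value, with a minimum of 50. The lists were read here as MACS calls before the study's further filters. They hold no read counts, signal or summits. A MACS score grows with depth, so sites were ranked by score within a list, and the printed scores are not comparable across lists.

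Here, Python 3.11.15 scripts (NumPy 2.4.6, SciPy 1.17.1, pysam 0.24.0, matplotlib 3.10.9) merged peaks of the 4 libraries that overlapped by at least 1 bp and assigned each site to the libraries with a peak. Peaks off the standard chromosomes were left out (1 to 11 per HIF-1β list used for the classes). Motifs were searched on both strands in the 201 bp at the middle of a site, with windows moved 2 kb to either side as background. Starts of protein-coding transcripts came from GENCODE release 44 on GRCh37. Shares have 95% Clopper-Pearson intervals. Values per library were compared by two-sided exact permutation tests, over HIF-1β alone or within 3 antibodies (also with the antibodies of a replicate kept together), with Benjamini-Hochberg adjustment over 4 measures (5 where the GC measure was added). Groups came from the labels. The overlap, merging and permutation code was tested on simulated data.

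Named sites were the 5 best by mean rank in each class and the 5 with the largest difference in percent rank each way, and named genes up to 4 per list and class by rank; ENO1, ANKRD37, H2BC17, POLR3E and a few further listed genes were named after their values were seen. Sites, gene lists and tests were chosen with earlier results of these data known. The alternatives were list length, score, overlap, motif window, start annotation, replicates left out and GC content. Input libraries and the HIF-α lists of RCC4 and HepG2 were not used here.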

Additional observations from a re-analysis of the deposited data

Results flagged for a closer look

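One contrast ran in opposite directions for 2 antibodies. The HRE share of peaks was lower in the WT libraries than in the severity and duration libraries for HIF-1β (WT minus severity and duration −12.6 percentage points, from 63.2 and 61.5% to 53.9 and 45.6%) and higher for HIF-1α (11.8 percentage points, from 55.9 and 46.4% to 64.6 and 61.3%), in every library of each. The difference between these 2 differences was −24.4 percentage points (exact permutation test, two-sided, p = 0.0556, the smallest that 36 arrangements can give), a test added after the data were seen. For HIF-2α the HRE difference was −3.28 points. Its libraries overlapped, with 47.0 and 52.0% in the severity and duration experiment and 49.4 and 43.1% in WT. The WT lists were longer by 2.20 (log2) for HIF-1β and by 0.62 for HIF-1α. With the lists of both antibodies cut to 1 length, the differences were −14.3 points for HIF-1β and 11.7 for HIF-1α, and −25.9 between them (exact permutation p = 0.0556). Libraries of 1 replicate number may share chromatin, which these arrangements do not take into account.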

How the results depend on the processing

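A stricter overlap of 50% of the shorter peak left every count and share close to its value. Windows of 200 bp gave 370 shared sites, with 49.5% of SD sites in both WT lists and 8.85% of WT sites in both SD lists. Lists of equal length gave 321 SD-only and 485 WT-only sites and shares of 51.0 and 36.8%. In those lists the shared sites were 23.7% promoter-proximal, 6.85% of SD-only sites held AP-1, and WT-only sites had 54.0% HRE, 13.6% AP-1 and 6.19% promoter-proximal. A score of at least 100 gave 246 shared, 59 SD-only and 2598 WT-only sites, and shares of 76.4 and 8.09%.

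Sites under 65% GC gave shares of 81.6 and 9.49%, HRE in 67.6% of shared and 51.3% of SD-only sites, and promoter-proximal shares of 20.6, 21.1 and 7.53% (shared, SD-only, WT-only). Sites without GTTCGANTC gave 74.3% of SD sites in both WT lists. Both subsets were chosen after the data were seen. Motif windows of 250 bp to either side held HRE in 93.8, 91.5 and 73.1% and AP-1 in 32.6, 7.34 and 31.0% of the 3 classes. A TSS within 5 kb was found for 40.7% of shared and 19.3% of WT-only sites, and a TSS of any transcript within 1 kb for 40.9, 64.4 and 17%.

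For the 3-antibody tests, lists of equal length lowered the AP-1 difference to 3.19 points (exact permutation, adjusted p 0.198), and peaks under 65% GC gave 4.75 for AP-1 (adjusted 0.0556), 0.292 for promoters (adjusted 0.889) and 4.57 for HRE. The HRE difference, which passed no threshold, was also positive with 250 bp windows (1.93) and without WT replicate 2 (0.0264). With the antibodies of a replicate kept together, an alternative added after the data were seen, the differences of 5.78 (AP-1), −10.6 (promoters) and 1.71 (log2 peak number) had an exact permutation p of 0.333, adjusted 0.444, since 2 against 2 preparations allow no smaller one. Why the other values moved was not tested further.

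Leaving out each HIF-1β library in turn gave 596 to 970 shared, 196 to 667 SD-only and 4112 to 7043 WT-only sites, and shares of 52.4 to 76.1% and 7.56 to 19.1%. The shared sites had 66.2 to 74.5% HRE, 16.2 to 18.8% AP-1 and 23.1 to 31.4% promoter-proximal, the SD-only sites 43.8 to 66.8, 2.55 to 5.55 and 28.2 to 56.5%, and the WT-only sites 43.4 to 51.4, 17 to 18.1 and 9.25 to 10.3%. The lowest SD-only HRE and promoter shares came without SD1. The 3-antibody differences were −2.75 to 0.0264 for HRE, 5.23 to 6.32 for AP-1, −11.8 to −9.36 for promoters and 1.64 to 1.78 (log2) for peak number. For HIF-1β alone they were −16.8 to −8.45, 3.36 to 6.65, −21.8 to −14.4 and 1.99 to 2.41.

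Replicate numbers did not pair the libraries: the replicate difference of SD and that of WT correlated at −0.04 (10265 sites, presence) and −0.03 (580 sites, rank). With the replicate block the differences were −12.6, 5.01, −18.1 and 2.20 for HIF-1β (exact permutation p = 0.500, the smallest possible) and −1.36, 5.78, −10.6 and 1.71 for 3 antibodies (exact permutation p = 0.0312 for the last 3, adjusted 0.0417), with no call changed. Unknown read depth limits every statement on sites that were not called.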
